A study of Mus musculus with 9 samples.

Results

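The axon guidance ligands and receptors of the mouse brain were followed as 67 genes: all semaphorins, plexins, neuropilins, ephrins, Eph receptors, Slits and Robos in the count table, with netrins 1 and 4 and their receptors Dcc and Unc5a to Unc5d, out of 18138 genes in all. The rule reads gene symbols and no measured value, although it was written with earlier results of these data known. The genes comprise 33 ligand genes and 34 receptor or co-receptor genes. Brain RNA had been sequenced in 9 libraries of 3 groups: MCAO surgery followed by hypidone hydrochloride (YL-0919) at 5 mg/kg for 7 days (libraries 2, 7 and 8), MCAO surgery (libraries 4, 5 and 6) and control (libraries 4, 5 and 6). MCAO, middle cerebral artery occlusion, is a surgical stroke model that blocks the blood supply of part of a hemisphere. The labels give the tissue as brain and name no strain, sex, age, brain region, hemisphere, sham operation, vehicle or time after surgery. An effect of the compound therefore cannot be told apart from one of a vehicle or of a different time of sampling. Nothing in the labels says that the libraries came from separate animals, so p-values reflect variation among these samples alone, and that variation may be technical.

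Guidance molecules steer growing axons by attraction or repulsion. Semaphorins signal through plexins, most secreted class 3 semaphorins with a neuropilin as co-receptor, ephrins through the Eph receptor tyrosine kinases, Slits through Robo receptors, and netrins through Dcc and the Unc5 receptors. In the adult brain the same proteins act at synapses, on blood vessels and on glia, and many of them restrain or allow the regrowth of injured axons.

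Each library held between 32075682 (control 4) and 37325027 (MCAO 4) counts, of which the 67 genes took between 0.228% and 0.359%, the most in control 5. Levels are given as CPM, counts scaled to a common library total with TMM factors, for 1 gene across libraries, and as FPKM, which also divides by gene length, where genes are compared with each other. The filter on low counts left 66 of the 67 genes to be tested. The Eph receptor gene Epha1 was the exception, with 1, 0 and 0 counts in hypidone libraries, 2, 19 and 6 in MCAO libraries, and 2, 2 and 2 in control libraries. Tests were edgeR quasi-likelihood F tests over 14756 genes, two-sided, and a gene was called at a Benjamini-Hochberg adjusted p under 0.05.

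Expression was concentrated in a few of the genes. The 10 genes with a mean of 10 FPKM or more over the 9 libraries held 51% of the summed 407 FPKM of all 67, and 8 genes lay under 1 FPKM. Sema7a, which encodes the GPI-anchored semaphorin that binds plexin C1 and integrins, was highest at a mean of 51.7 FPKM. It was followed by the Eph receptor gene Epha4 (34.7 FPKM), the transmembrane semaphorin gene Sema6b (23.3 FPKM), the ephrin gene Efna3 (21.1 FPKM), the kinase-inactive Eph receptor gene Ephb6 (16.7 FPKM) and the transmembrane ephrin gene Efnb3 (14.4 FPKM). Below them stood Plxnd1, Robo2, Plxna1 and Unc5a, between 10.04 and 13.8 FPKM. Of these 10 genes, Sema7a alone was called in any comparison. The log2 fold changes of the other 9 lay between -0.76 (Efnb3) and 0.46 (Unc5a) for MCAO against control, and between -0.61 (Unc5a) and 0.58 (Ephb6) for hypidone against MCAO. Epha4 averaged 31.8 ± 3.32 FPKM in hypidone libraries, 32.8 ± 6.21 in MCAO libraries and 39.4 ± 12.9 in control libraries (SD, n = 3 each), and Sema6b 23.2 ± 1.40, 23.6 ± 5.10 and 23.1 ± 2.57 FPKM in the same order of groups. The differences between group means of both genes were smaller than the largest of these standard deviations.

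Control 5 and MCAO 5 stood apart from the others of their group in these genes. In control 5, 13 of the 66 genes were more than 2 times as high as in both other control libraries and 7 were at less than 0.5 times the level of both. In MCAO 5 the same numbers were 8 and 1, and in the other control and MCAO libraries at most 1 and 4. These counts were not made over all tested genes, so they cannot show whether guidance genes were particular in this. The genes high in control 5 included the Eph receptor gene Epha6 (56.8 CPM, 7.59 times the mean of control 4 and control 6), Slit1 (190.4 CPM, 7.45 times), the neuropilin gene Nrp2 (62.6 CPM, 7.02 times) and Sema5a (137.3 CPM, 5.12 times). Those low in control 5 were led by Sema3a, a secreted repellent semaphorin, at 4.51 CPM, and the ephrin gene Efna5, at 7.77 CPM. The summed CPM of 10 hippocampal neuron markers was 1246 in control 5 and between 431.5 and 602.7 in the other 8 libraries. That of 10 cortical neuron markers was 537.8 in control 5, against 1615 and 1516 in control 4 and control 6. The cortical sum was also low in MCAO 5 (661.4) and MCAO 6 (714.7), with 1310 in MCAO 4 and 1447 to 1607 in hypidone libraries. Choroid plexus and ependyma markers summed to 209.4 CPM in control 5 and to between 4.69 and 22.2 CPM elsewhere, and oligodendrocyte markers to 7414 CPM in control 5 and to between 2778 and 4639 CPM elsewhere. Among the hippocampal markers, Prox1 had 131 CPM in control 5 and between 7.60 and 11.98 CPM elsewhere, and Spink8 was at 0 in 1 hypidone library. Whether a different part of the brain was taken for control 5 is not stated in the labels, and the part of these marker differences in the guidance genes was not tested. In MCAO 5 the neuropilin gene Nrp1, also a receptor for vascular endothelial growth factor, had 94.8 CPM, against 6.17 and 15.3 CPM in MCAO 4 and MCAO 6. The summed CPM of 10 mural cell and fibroblast markers was 1686 in MCAO 5, against 180.8 and 294.9 in MCAO 4 and MCAO 6. It ran from 221.9 to 554.2 in hypidone and from 208.4 to 238.1 in control libraries. The part of this difference in the guidance genes was not tested. Spread within groups was wide: the median coefficient of variation of the 66 genes was 13.1% in hypidone, 29.4% in MCAO and 30.5% in control libraries, beside 9.47%, 22.2% and 14.9% for all tested genes.

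**Figure D1:**
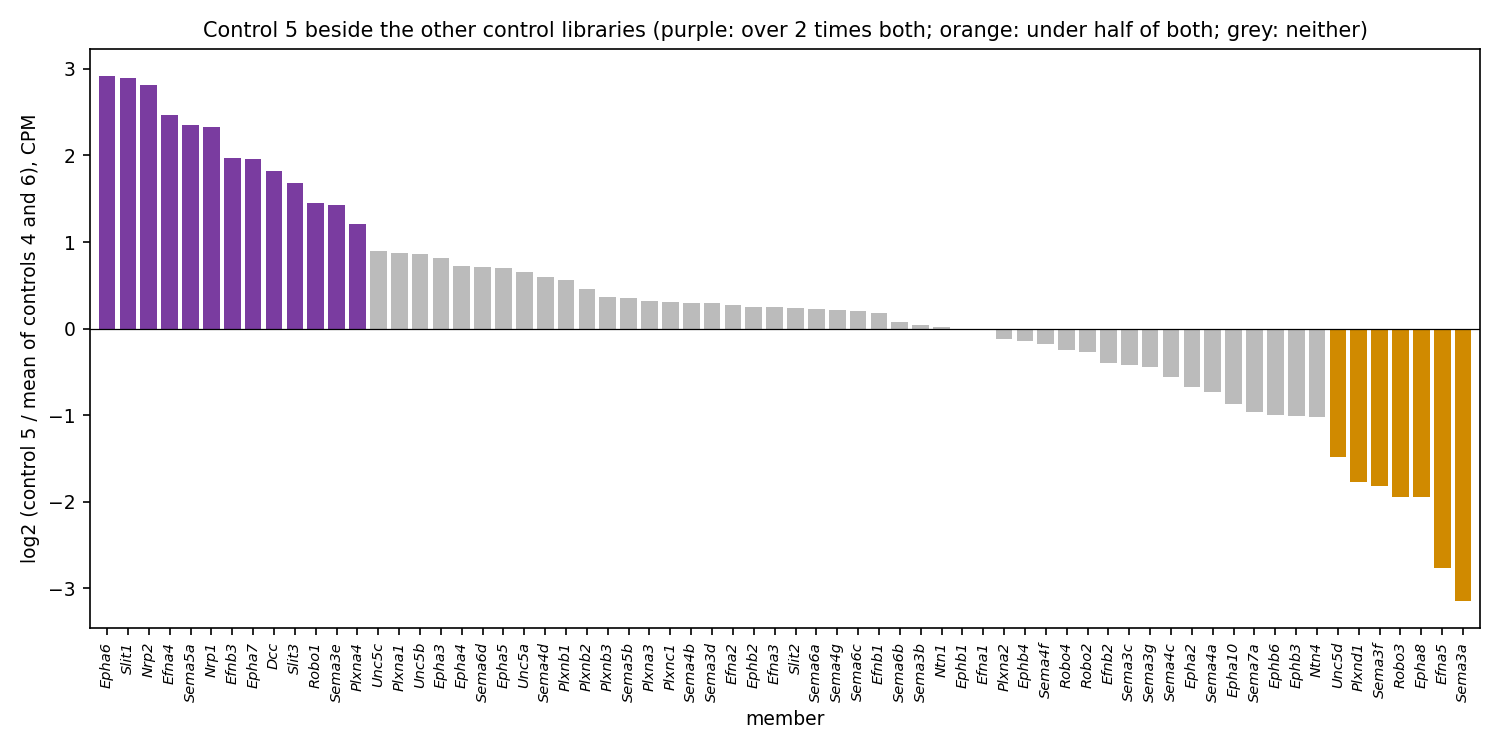
Bars give the log2 ratio of CPM in control 5 to the mean of control 4 and control 6 for each of the 66 tested guidance genes, ordered from high to low; purple marks the 13 genes over 2 times both other control libraries and orange the 7 under 0.5 times both. Epha6, Slit1 and Nrp2 stand at the left end and Sema3a and Efna5 at the right end, while Slit2, Ephb1 and Efna1 lie in the grey middle.

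MCAO libraries differed from control libraries in 10 of the 66 guidance genes. The ephrin ligand gene Efna1, the Eph receptor gene Epha2 and the vascular Robo gene Robo4 were higher in MCAO libraries (3 of 66, 4.55%, beside 10.6% of all 14756 tested genes). Slit2, the EphB receptor genes Ephb1, Ephb2 and Ephb3, the EphA receptor gene Epha3 and the plexin genes Plxna3 and Plxnc1 were lower (7 of 66, 10.6%, beside 9.81% of all tested genes). The share of called guidance genes was thus below the share of all genes for higher calls and close to it for lower calls. The median log2 fold change of the 66 genes was -0.27, against 0.01 over all tested genes. It was -0.10 without control 5, -0.15 without control 6 and -0.01 without both control 5 and MCAO 5. In bulk RNA, fewer cells of a type and less RNA per cell cannot be told apart. Among receptors 2 of 33 genes were higher and 6 lower, and among ligands 1 of 33 was higher and 1 lower.

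Hypidone libraries differed from MCAO libraries in 10 of the 66 genes as well. Slit2, Ephb1, Ephb2, Ephb3, Epha3, Plxna3, Plxnc1 and Sema7a were higher in hypidone libraries (8 of 66, 12.1%, beside 8.23% of all tested genes), and Efna1 and Epha2 were lower (2 of 66, 3.03%, beside 8.28%). The median log2 fold change was 0.11 over the 66 genes and -0.04 over all, and ranged from 0.06 without hypidone 2 to 0.18 without hypidone 8. This comparison and that of MCAO with control share the MCAO libraries, so opposite directions in them are not independent, and the values of each are given side by side below. Both sets of counts depended on the libraries in the fit, as did the shares of all tested genes called, given in brackets. Hypidone against MCAO gave 2 higher and 1 lower without hypidone 2 (2.3% and 1.66%) and 2 and 2 without hypidone 7 (2.33% and 1.56%). It gave 4 and 1 without hypidone 8 (2.1% and 1.55%) and 4 and 2 without MCAO 6 (2.6% and 2.28%). Without control 5 it gave 11 and 4 (10.8% and 10.3%), and without MCAO 4 it gave 10 and 5 (11.7% and 14.1%). MCAO against control gave 2 and 2 when only these groups were fitted (2.38% and 2.33%). It gave 2 and 4 without control 6 (3.19% and 4.07%) and 4 and 11 without control 5 (9.12% and 10.3%). Without MCAO 4 it gave 5 and 11 (15.7% and 12.8%). Leaving out control 5 and MCAO 5 together was a setting chosen after seeing the data. That setting gave 8 and 14 for MCAO against control (15.7% and 15.2%) and 16 and 6 for hypidone against MCAO (16.3% and 16%).

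**Figure D2:**
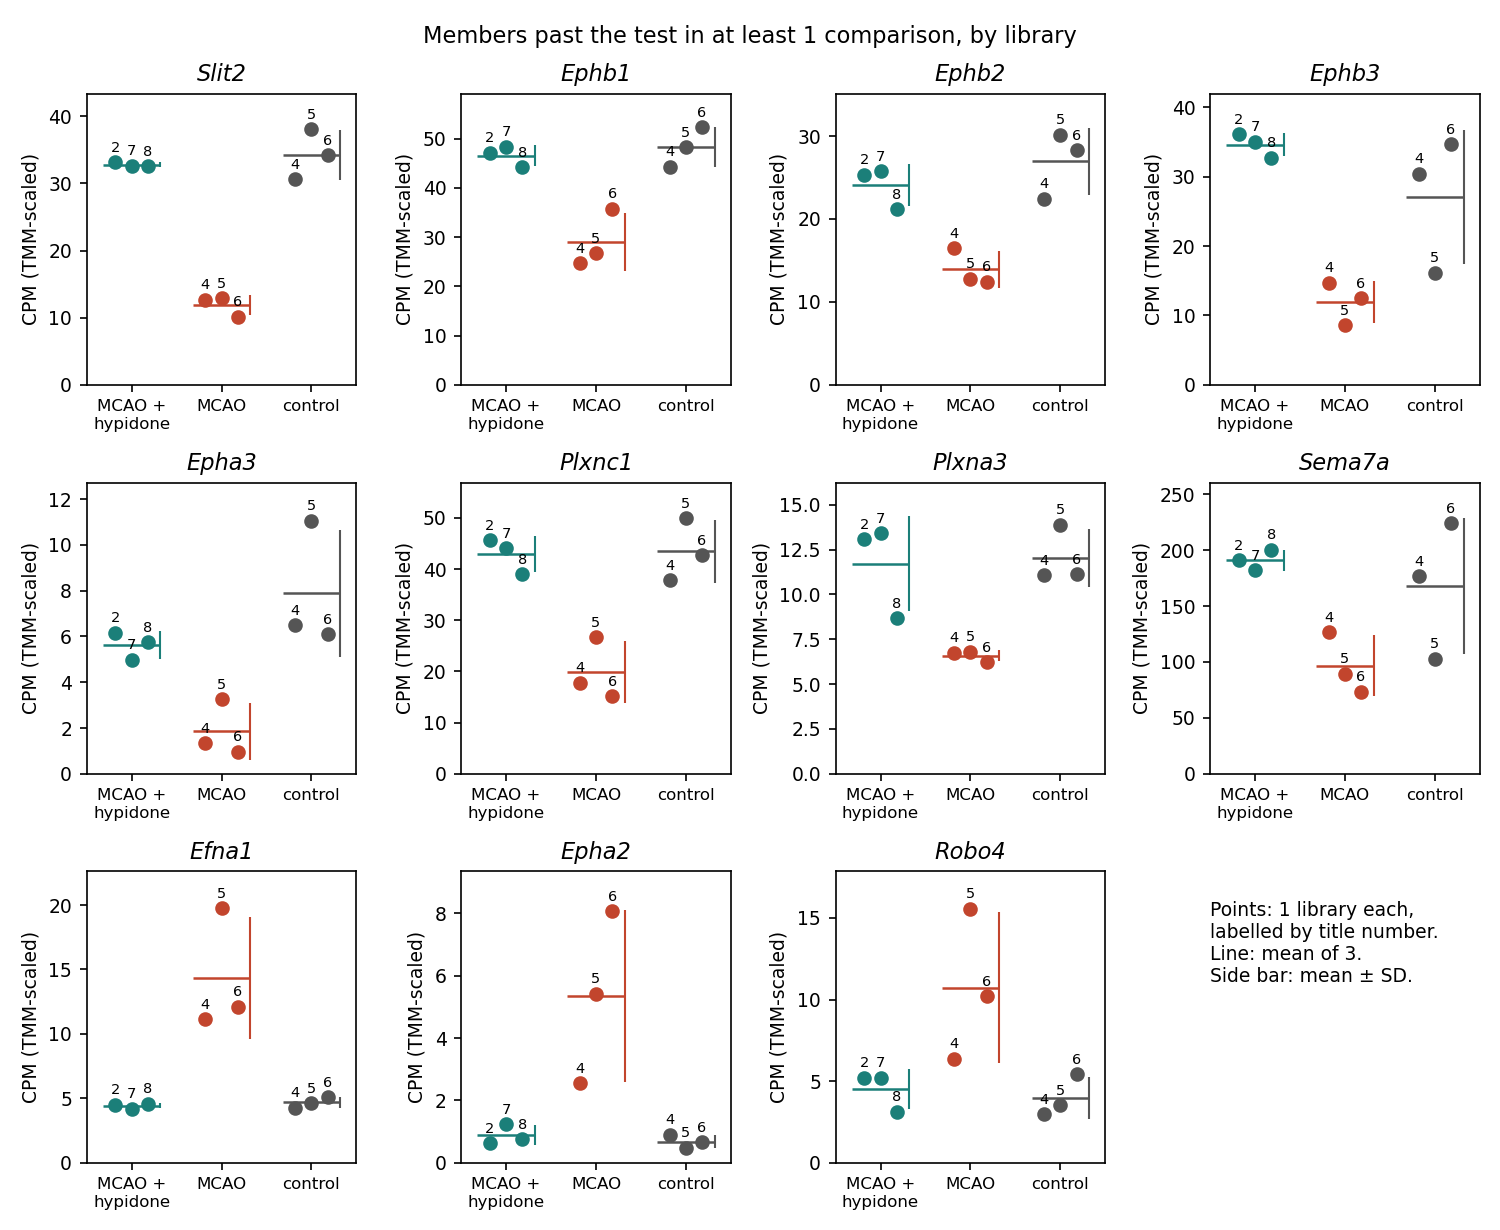
CPM (TMM-scaled) of the 11 guidance genes called in at least 1 comparison, 1 panel per gene; each point is 1 library labelled by its number, the line is the mean of 3 and the side bar the mean ± SD, with hypidone-treated MCAO, MCAO and control libraries from left to right. In the first 7 panels the MCAO points lie below all hypidone and control points, in the panels of Efna1, Epha2 and Robo4 they lie above them, and in the Sema7a panel control 5 lies within the MCAO range.

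The start regions of 4 of the called genes are shown because Slit2, Ephb3 and Efna1 kept their hypidone against MCAO call when any 1 library was left out, and Epha2 had the largest fold change. Each is 300 bases of RefSeq sequence (build GRCm38.p6), from 250 bases before to 50 bases after an annotated gene start, read 5′ to 3′ on the strand of the gene. Capitals mark matches, on either strand, to motifs chosen after these sequences had been read: the GC box (GGGCGG), the EGR site (GCGNGGGCG), the TATA box (TATAAA), the cyclic AMP response element (TGACGTCA) and the hypoxia element core (ACGTG). The AP-1 site (TGANTCA) and the steroid receptor motif (AGAACA) were searched as well and have no match in these 4.
Slit2, chr5:47982905-47983204, plus strand: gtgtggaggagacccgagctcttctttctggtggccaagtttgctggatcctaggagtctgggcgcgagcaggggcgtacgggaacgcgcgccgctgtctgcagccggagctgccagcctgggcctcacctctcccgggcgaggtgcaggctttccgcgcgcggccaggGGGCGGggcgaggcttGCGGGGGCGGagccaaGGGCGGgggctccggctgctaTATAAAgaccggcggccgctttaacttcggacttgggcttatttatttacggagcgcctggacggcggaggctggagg
Ephb3, chr16:21204545-21204844, plus strand: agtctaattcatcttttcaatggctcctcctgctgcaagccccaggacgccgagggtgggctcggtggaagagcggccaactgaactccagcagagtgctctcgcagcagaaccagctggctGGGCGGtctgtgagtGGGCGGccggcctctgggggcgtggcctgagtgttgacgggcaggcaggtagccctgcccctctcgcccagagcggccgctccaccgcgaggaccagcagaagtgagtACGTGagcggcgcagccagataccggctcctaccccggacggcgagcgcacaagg
Efna1, chr3:89279596-89279895, minus strand: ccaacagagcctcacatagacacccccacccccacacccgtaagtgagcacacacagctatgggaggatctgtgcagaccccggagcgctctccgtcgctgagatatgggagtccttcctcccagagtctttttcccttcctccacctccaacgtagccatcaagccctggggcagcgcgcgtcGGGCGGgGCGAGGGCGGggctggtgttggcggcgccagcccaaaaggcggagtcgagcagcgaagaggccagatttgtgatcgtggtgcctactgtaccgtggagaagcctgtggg
Epha2, chr4:141300971-141301270, plus strand: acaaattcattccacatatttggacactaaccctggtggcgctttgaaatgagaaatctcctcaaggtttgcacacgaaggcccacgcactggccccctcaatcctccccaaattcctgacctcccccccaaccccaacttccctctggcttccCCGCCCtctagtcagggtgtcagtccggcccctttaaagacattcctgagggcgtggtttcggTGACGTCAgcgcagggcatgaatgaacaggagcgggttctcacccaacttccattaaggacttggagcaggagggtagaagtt
The Slit2 window held 3 GC boxes, 1 of them overlapping the only EGR match, and a TATA box, which was found in 13.6% of all 32851 windows of this length and in no other window of a called gene. The Epha2 window held the cyclic AMP response element, present in 1.79% of all windows, and 1 GC box read on the other strand. Over the 12 windows of the 11 called genes (Efna1 has 2 annotated starts), a GC box was found in 8, against 35.7% of all windows, and an EGR match in 3, against 5.55%. EGR matches contain most of a GC box, so the 2 counts overlap. Median GC content was 65.2% in the 12 windows and 52.7% in all windows. The hypoxia element core was in 1 of the 12 (Ephb3) and in 19.6% of all windows, the steroid receptor motif in 1 (Plxna3) and in 19%, and the AP-1 site in 0 and in 7.81%. These are matches of letters, with no measurement of binding.

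Among the ligands, Slit2 changed most evenly. Slit2 encodes a secreted repellent for Robo-bearing axons and lies at chr5:47983138-48307733 on the plus strand (GRCm38). It had 33.2, 32.6 and 32.5 CPM in hypidone libraries, 12.7, 12.9 and 10.1 CPM in MCAO libraries, and 30.6, 38.1 and 34.2 CPM in control libraries. All 3 MCAO libraries lay far below the other 6, and the hypidone values fell within the control range. The log2 fold change was -1.53 ± 0.14 (SE) for MCAO against control (adjusted p = 0.00158, edgeR) and 1.46 ± 0.14 for hypidone against MCAO (adjusted p = 0.00183, edgeR). These were the lowest adjusted p-values among the guidance genes in each comparison. The other Slits were not called. Slit1 had 39.7, 23.1 and 22.8 CPM in hypidone libraries, 54.9, 45.8 and 52.1 in MCAO libraries, and 21.9, 190.4 and 29.3 in control libraries, so that only control 5 was above the MCAO range. Without control 5, Slit1 was higher in MCAO than in control libraries (log2 fold change 0.99 ± 0.27, adjusted p = 0.0376, edgeR) and lower in hypidone than in MCAO libraries (-0.83 ± 0.23, adjusted p = 0.0386). With it, the estimate for MCAO against control had the other sign, -0.66 ± 0.70 (adjusted p = 0.523).

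Efna1 encodes a GPI-anchored ephrin that was isolated as a gene induced by tumour necrosis factor in human endothelial cells; the mouse gene lies at chr3:89271733-89281142 on the minus strand. It had 4.49, 4.19 and 4.60 CPM in hypidone libraries, 11.2, 19.8 and 12.1 CPM in MCAO libraries, and 4.28, 4.64 and 5.11 CPM in control libraries. Every MCAO library was above every other library, MCAO 5 highest. Efna1 had a log2 fold change of 1.62 ± 0.25 for MCAO against control (adjusted p = 0.00565, edgeR) and -1.70 ± 0.25 for hypidone against MCAO (adjusted p = 0.00571). The other 7 ephrins were not called. Efna3, the most abundant of them, had 64.2, 74.6 and 68.9 CPM in hypidone libraries, 66.8, 35.0 and 40.5 in MCAO libraries, and 75.2, 86.5 and 70.5 in control libraries, with MCAO values below all controls and an adjusted p of 0.0513 for MCAO against control (edgeR). Efna5, an ephrin that repels retinal axons, had 45.9, 49.3 and 48.5 CPM in hypidone libraries, 33.8, 25.9 and 25.7 in MCAO libraries, and 53.7, 7.77 and 52.0 in control libraries. Its call turned on control 5: without that library the log2 fold change of MCAO against control was -0.90 ± 0.14 (adjusted p = 0.00818, edgeR), and with it -0.41 ± 0.54 (adjusted p = 0.618).

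Of the 20 semaphorins, 1 was called, in 1 comparison. Sema7a (chr9:57940112-57962865, plus strand) had 190.8, 181.8 and 200.5 CPM in hypidone libraries, 126.7, 89.6 and 73.3 CPM in MCAO libraries, and 176.7, 102.8 and 223.9 CPM in control libraries. All hypidone libraries exceeded all MCAO libraries, whereas control 5 lay between MCAO 4 and MCAO 5. For Sema7a the log2 fold change was 0.98 ± 0.28 for hypidone against MCAO (adjusted p = 0.044, edgeR) and -0.80 ± 0.28 for MCAO against control (adjusted p = 0.0723). Without control 5 the second of these became -1.06 ± 0.22 (adjusted p = 0.0166). The hypidone against MCAO call was lost in 6 of 19 settings (adjusted p up to 0.143): without control 4, MCAO 5, MCAO 6, hypidone 2, hypidone 7 or hypidone 8. Among secreted class 3 semaphorins, Sema3a was like Efna5: it had 44.7, 42.1 and 40.2 CPM in hypidone libraries, 25.9, 26.8 and 15.0 in MCAO libraries, and 44.2, 4.51 and 35.8 in control libraries. Its log2 fold change for MCAO against control was -0.83 ± 0.24 without control 5 (adjusted p = 0.044, edgeR) and -0.32 ± 0.62 with it (adjusted p = 0.737). Sema3d ran the other way, with 6.62, 9.95 and 7.44 CPM in hypidone libraries, 8.27, 29.6 and 11.3 CPM in MCAO libraries, and 6.93, 7.14 and 4.69 CPM in control libraries, and was not called (adjusted p = 0.0543 for MCAO against control, edgeR). Neither netrin gene was called.

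Among the receptors, 3 of the 5 EphB genes were lower in MCAO than in control libraries, beside 9.81% of all tested genes, and 3 of the 5 were higher in hypidone than in MCAO libraries, beside 8.23%. EphB receptors bind B-type ephrins and act in spine formation and at excitatory synapses. The summed level of the 5 EphB genes was 41.3 ± 3.98 FPKM in hypidone libraries, 25.6 ± 2.08 in MCAO libraries and 37.01 ± 9.23 in control libraries (SD, n = 3 each). The highest MCAO library, at 28.0 FPKM, was just below the lowest control, control 5, at 28.5 FPKM. Ephb1, Ephb2 and Ephb3 were called in both comparisons, and Ephb4 and Ephb6 in neither.

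**Figure D3:**
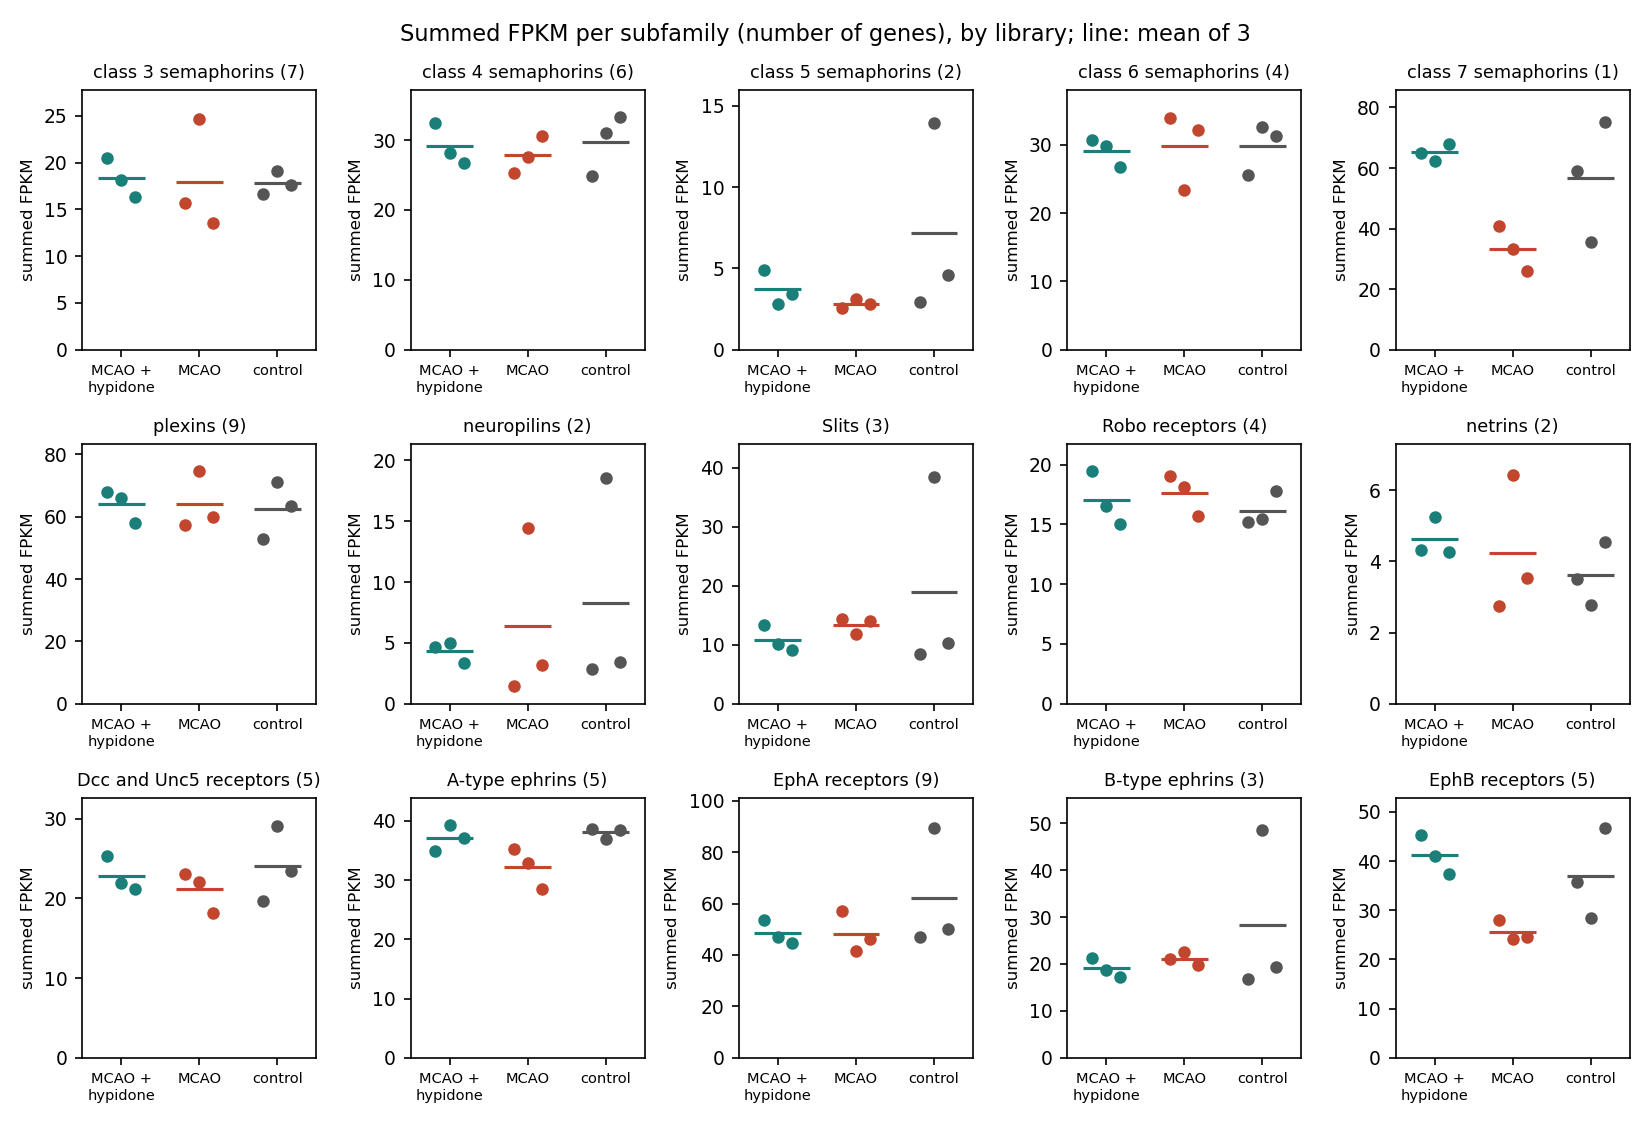
Summed FPKM of each of 15 subfamilies of guidance genes, with the number of genes in brackets; points are libraries, lines means of 3, and hypidone-treated MCAO, MCAO and control groups run from left to right. EphB receptors and Sema7a are lower in MCAO than in hypidone libraries without overlap, whereas single high points of control 5 set the means of B-type ephrins, class 5 semaphorins, Slits and EphA receptors in the control group.

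The 3 genes lie apart, Ephb3 at chr16:21204755-21223305 (plus strand), Ephb2 at chr4:136647539-136835988 (minus strand) and Ephb1 at chr9:101922128-102354693 (minus strand). Ephb3 had 36.1, 35.0 and 32.8 CPM in hypidone libraries, 14.7, 8.62 and 12.5 CPM in MCAO libraries, and 30.4, 16.2 and 34.6 CPM in control libraries. Control 5 was the only control library near the MCAO range. Ephb3 had a log2 fold change of -1.18 ± 0.29 for MCAO against control (adjusted p = 0.0229, edgeR) and 1.54 ± 0.29 for hypidone against MCAO (adjusted p = 0.0117). The first call was lost in 6 of 20 settings, among them fits without control 4, control 6 or MCAO 6 (adjusted p up to 0.116). Ephb2, the EphB receptor best known for binding NMDA receptors, had 25.3, 25.7 and 21.2 CPM in hypidone libraries, 16.5, 12.8 and 12.4 CPM in MCAO libraries, and 22.4, 30.1 and 28.3 CPM in control libraries. Its groups did not overlap between MCAO and either other group, with log2 fold changes of -0.95 ± 0.17 (adjusted p = 0.00881, edgeR) against control and 0.79 ± 0.17 for hypidone against MCAO (adjusted p = 0.0182). Its hypidone against MCAO call was lost without MCAO 6, hypidone 2, hypidone 7 or hypidone 8 (adjusted p up to 0.0766). Ephb1 had 47.1, 48.3 and 44.2 CPM in hypidone libraries, 24.7, 26.8 and 35.8 CPM in MCAO libraries, and 44.3, 48.2 and 52.4 CPM in control libraries. MCAO 6 was the MCAO library closest to the others. Ephb1 gave a log2 fold change of -0.73 ± 0.15 for MCAO against control (adjusted p = 0.0137, edgeR) and 0.68 ± 0.15 for hypidone against MCAO (adjusted p = 0.0206). The hypidone against MCAO call of Ephb1 was lost without any 1 hypidone library (adjusted p up to 0.0786), and that of MCAO against control without control 6. An exon of Ephb1 overlaps Gm26846 on the opposite strand. The strand setting of the counting is not given, so reads in the shared stretch cannot be assigned to either gene. Among other genes named here, exons of Epha1, Epha6, Ephb4, Efna3, Unc5a, Unc5c and Plxna1 overlap another gene on the opposite strand. An exon of Nrp1 overlaps Mir1903 on the same strand. Ephb4, a venous endothelial receptor for ephrin B2, had a log2 fold change of 0.97 ± 0.45 for MCAO against control (adjusted p = 0.153, edgeR), and Ephb6 one of -0.41 ± 0.32 (adjusted p = 0.379).

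Epha2 (chr4:141301240-141329384, plus strand) and Epha3 (chr16:63543534-63864175, minus strand) moved in opposite directions. Epha2, an Eph kinase best known from epithelial cells and a receptor of ephrin A1, had 0.633, 1.24 and 0.761 CPM in hypidone libraries, 2.56, 5.42 and 8.07 CPM in MCAO libraries, and 0.894, 0.489 and 0.661 CPM in control libraries. It was scarce everywhere, at a mean of 0.567 FPKM, and each MCAO library exceeded each of the other 6. The log2 fold change was 2.97 ± 0.51 for MCAO against control (adjusted p = 0.00736, edgeR), the largest of the 66 genes, and -2.60 ± 0.50 for hypidone against MCAO (adjusted p = 0.0125), which was lost without hypidone 2 or hypidone 8 (adjusted p up to 0.0634). Epha3, a receptor of A-type ephrins, had 6.16, 4.99 and 5.74 CPM in hypidone libraries, 1.34, 3.26 and 0.961 CPM in MCAO libraries, and 6.48, 11.1 and 6.10 CPM in control libraries. MCAO 5 was the highest of the MCAO libraries and control 5 the highest of the controls. The log2 fold change of Epha3 was -2.09 ± 0.46 for MCAO against control (adjusted p = 0.0163, edgeR) and 1.60 ± 0.45 for hypidone against MCAO (adjusted p = 0.0429). The second call was lost in 10 of 19 alternative settings (adjusted p up to 0.118), among them fits without control 4, control 6, MCAO 4, MCAO 6, hypidone 2, hypidone 7 or hypidone 8. The other 6 tested EphA genes were not called, Epha7 coming closest with -1.61 ± 0.52 for MCAO against control (adjusted p = 0.056, edgeR). Epha7 had 31.0, 16.1 and 24.4 CPM in MCAO libraries and 33.2, 144.0 and 41.1 CPM in control libraries, with control 5 far above the other control libraries.

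Of the 9 plexins, Plxnc1 and Plxna3 were called. Plxnc1, the receptor of Sema7a, had 45.7, 44.1 and 39.0 CPM in hypidone libraries, 17.8, 26.6 and 15.1 CPM in MCAO libraries, and 37.8, 49.9 and 42.7 CPM in control libraries. No MCAO library reached a library of the other groups. Its log2 fold change was -1.13 ± 0.21 for MCAO against control (adjusted p = 0.00978, edgeR) and 1.11 ± 0.21 for hypidone against MCAO (adjusted p = 0.0122), which was lost without hypidone 2 or hypidone 7 (adjusted p up to 0.0509). Part of Plxnc1 (chr10:94790866-94944835, minus strand) overlaps Gm48718 on the same strand, so some of its reads are uncertain. Plxna3, a receptor for class 3 semaphorins with neuropilin 2 (chrX:74329066-74344689, plus strand), had 13.1, 13.4 and 8.67 CPM in hypidone libraries, 6.74, 6.80 and 6.23 CPM in MCAO libraries, and 11.1, 13.9 and 11.1 CPM in control libraries. Hypidone 8 was the library of its group nearest to MCAO. Plxna3 gave a log2 fold change of -0.87 ± 0.21 for MCAO against control (adjusted p = 0.0219, edgeR) and 0.83 ± 0.21 for hypidone against MCAO (adjusted p = 0.0287). The MCAO against control call was lost in 6 of 20 settings, among them fits without control 4, control 6 or MCAO 6 (adjusted p up to 0.107), and the hypidone against MCAO call in 6 of 19, among them fits without MCAO 6, hypidone 2 or hypidone 7 (adjusted p up to 0.114). Plxnb2, a class 4 semaphorin receptor, had 51.9, 54.1 and 45.9 CPM in hypidone libraries, 50.01, 120.2 and 71.5 CPM in MCAO libraries, and 38.7, 55.9 and 42.7 CPM in control libraries, with an adjusted p of 0.0711 for MCAO against control (edgeR). Neither neuropilin was called. Nrp1 had 27.3, 26.3 and 18.6 CPM in hypidone libraries, 6.17, 94.8 and 15.3 in MCAO libraries, and 17.6, 103.5 and 23.5 in control libraries, so that 1 library in each of the last 2 groups held most of its counts.

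Robo4, the Robo of endothelial cells (chr9:37401897-37415115, plus strand), had 5.21, 5.22 and 3.13 CPM in hypidone libraries, 6.37, 15.6 and 10.2 CPM in MCAO libraries, and 2.97, 3.53 and 5.44 CPM in control libraries. MCAO 4 was only slightly above the highest control. Robo4 had a log2 fold change of 1.43 ± 0.38 for MCAO against control (adjusted p = 0.0321, edgeR) and -1.24 ± 0.38 for hypidone against MCAO, which was not called (adjusted p = 0.0551). The call was lost in 11 of 20 alternative settings (adjusted p up to 0.116), among them fits without control 4, control 5, control 6, MCAO 5, MCAO 6, hypidone 2 or hypidone 7. Of 10 endothelial markers, 5 were higher in MCAO than in control libraries, beside 10.6% of all tested genes. In hypidone against MCAO 3 were lower, beside 8.28%. The summed CPM of the 10 ran from 381.3 to 443.1 in hypidone, 521.3 to 936.8 in MCAO and 273.7 to 425.7 in control libraries. MCAO 5 was highest, and no marker was at 0 in any library. The part of this difference in Robo4, Efna1 and Epha2 was not tested. The neuronal Slit receptors Robo1 and Robo2 were not called, nor was Robo3. Robo2 had 158.1, 125.3 and 115.4 CPM in hypidone libraries, 165.9, 106.2 and 95.2 in MCAO libraries, and 125.8, 109.7 and 138.6 in control libraries, with a log2 fold change of -0.03 (95% interval -0.52 to 0.46) for MCAO against control.

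The netrin receptors were called in no comparison (lowest adjusted p 0.0573, Unc5b in MCAO against control, edgeR). In hypidone against MCAO, however, the 3 values of each group did not overlap for any of the 5: Dcc, Unc5b, Unc5c and Unc5d were higher in every hypidone library, and Unc5a, the most abundant, lower. Groups failed to overlap in 20.9% of all tested genes for higher values and 19% for lower ones, and among the 66 guidance genes in 16 and 5. Dcc, the netrin receptor that mediates attraction, had 16.1, 13.96 and 12.5 CPM in hypidone libraries and 7.00, 12.2 and 4.83 CPM in MCAO libraries. In control libraries Dcc had 11.7, 41.4 and 11.7 CPM, so MCAO 5 lay above control 4 and control 6. Unc5d, a repulsive netrin receptor marking upper cortical layers in development, had 72.1, 67.3 and 69.9 CPM in hypidone libraries and 45.8, 41.8 and 20.2 CPM in MCAO libraries. Its log2 fold change for hypidone against MCAO was 0.96 ± 0.40 (adjusted p = 0.125, edgeR). Control libraries had 76.5, 25.6 and 67.3 CPM of Unc5d, with control 5 inside the MCAO range. Unc5a had 96.8, 84.6 and 83.9 CPM in hypidone libraries, 167.8, 109.6 and 128.6 CPM in MCAO libraries, and 70.3, 129.7 and 94.3 CPM in control libraries. Its control 5 value also lay inside the MCAO range, and its log2 fold change for hypidone against MCAO was -0.61 ± 0.23 (adjusted p = 0.0921, edgeR). In MCAO against control, groups did not overlap for 5 guidance genes with higher and 11 with lower values, beside 16.5% and 17% of all tested genes.

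**Figure D4:**
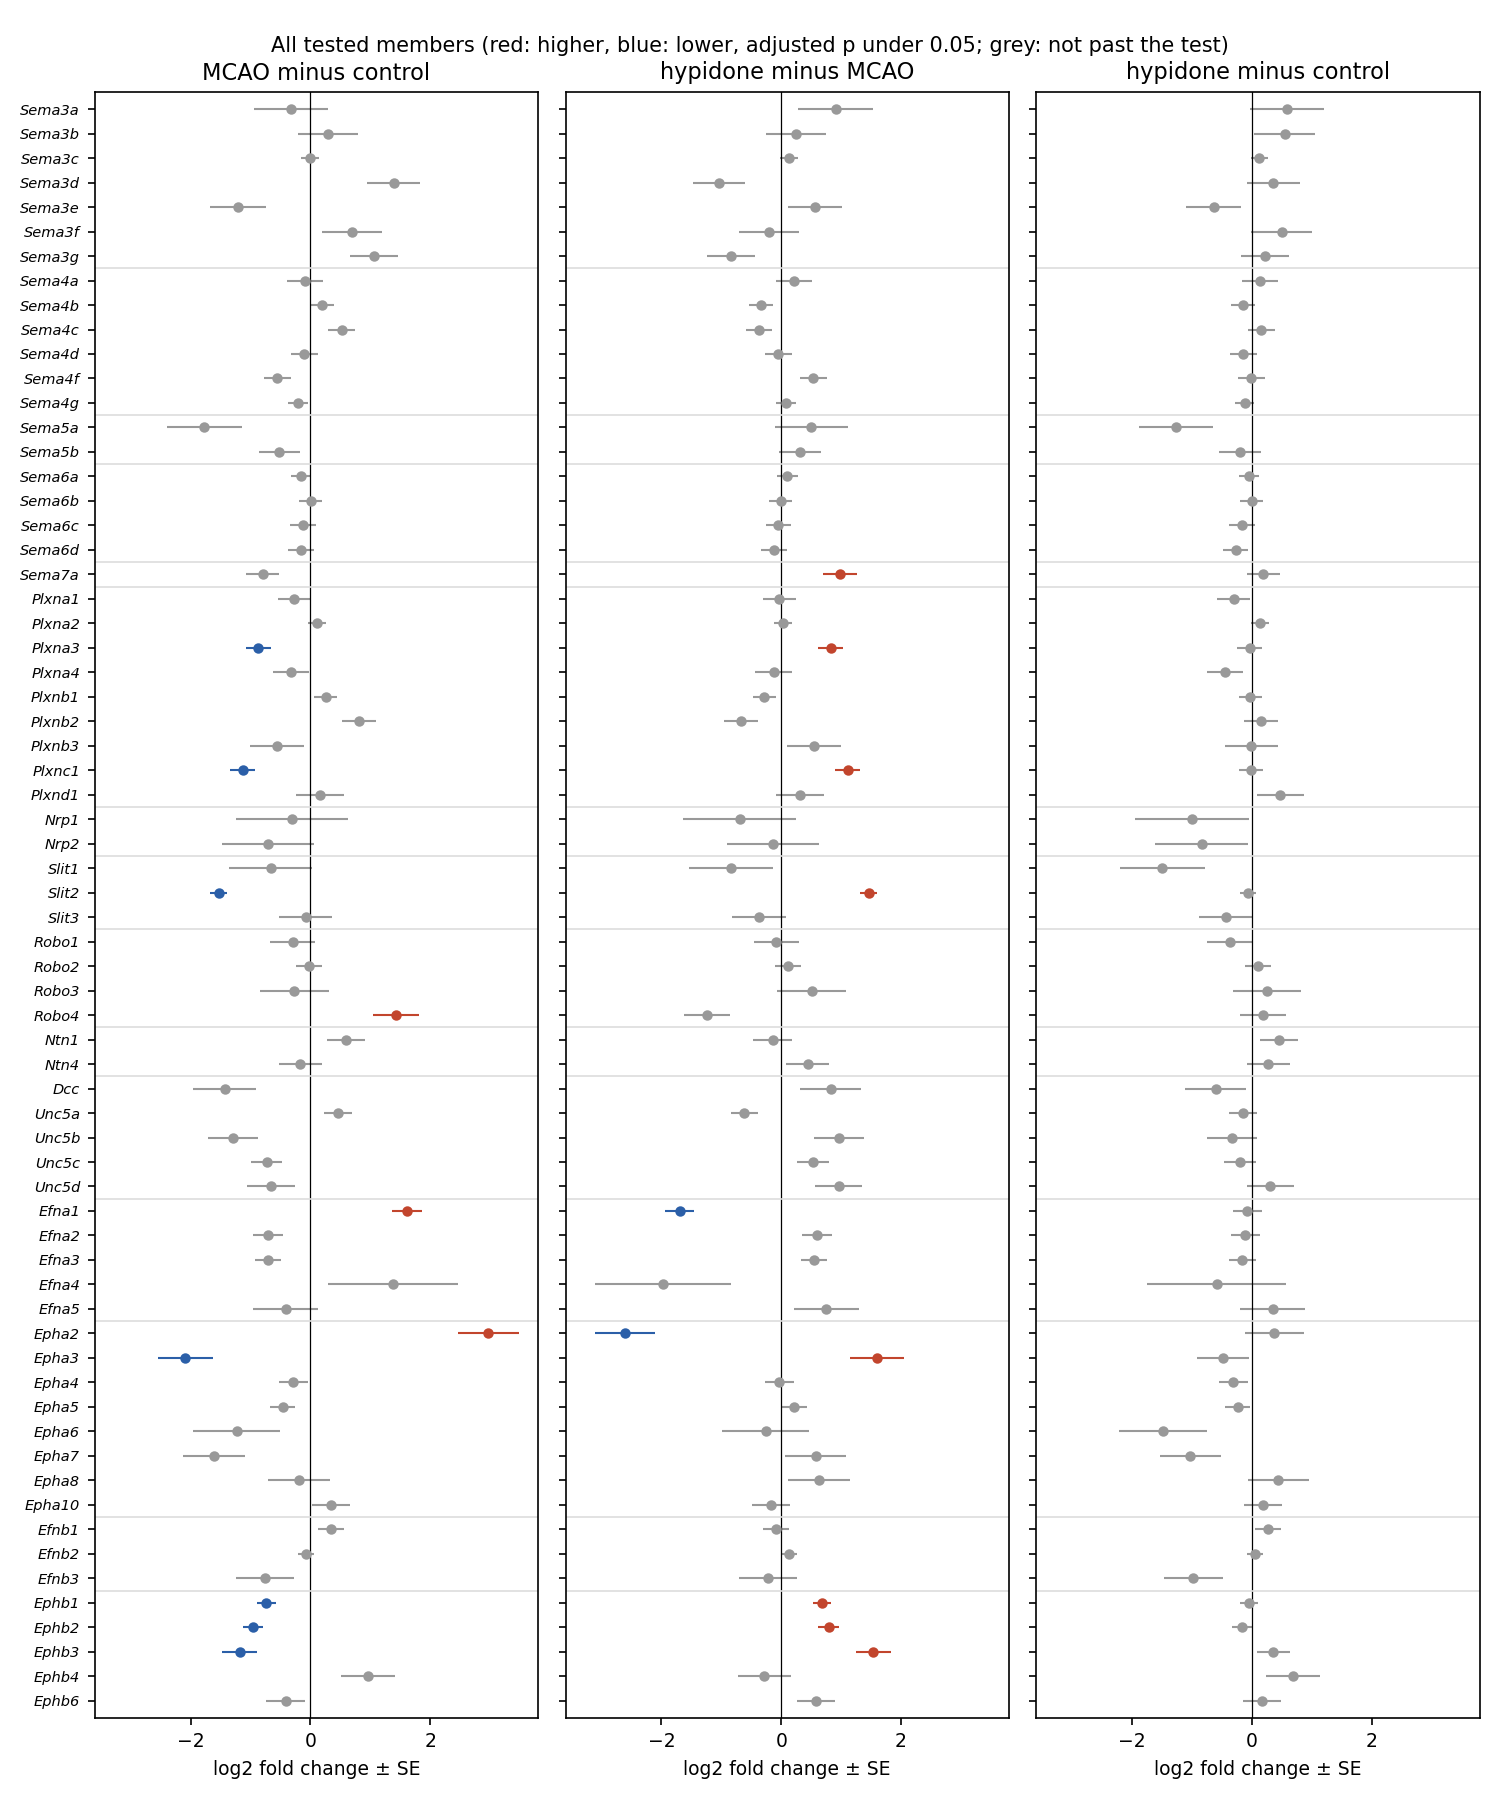
Log2 fold change ± SE of all 66 tested guidance genes for MCAO minus control, hypidone minus MCAO and hypidone minus control, grouped by family; red marks genes called higher, blue genes called lower, grey the rest. Calls appear in the first 2 panels only, and bars are wide for genes in which control 5 or MCAO 5 stood apart, such as Nrp1, Slit1 and Epha6.

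Hypidone libraries and control libraries were compared directly as the third contrast. None of the 66 genes was called in either direction, as was none of all 14756 genes (0%), and no guidance gene reached an unadjusted p under 0.05 (edgeR), where 0.4% of all genes did so upward and 0.488% downward. DESeq2 also called 0 of these genes. It had 0 higher and 4 lower at an unadjusted p under 0.05, with the share of all genes not computed. The log2 fold changes ranged from -1.50 (Slit1, unadjusted p = 0.064, edgeR, the lowest) to 0.69 (Ephb4). Hypidone and control values overlapped for every guidance gene (0 higher and 0 lower without overlap, beside 3.86% and 2.71% of all tested genes). A p above the threshold does not show equal expression. For 35 of the 66 genes the 95% interval lay within 1 log2 unit of 0. For Slit2 it ran from -0.38 to 0.25, for Ephb1 from -0.40 to 0.29 and for Efna1 from -0.63 to 0.47, while for Epha2 it ran from -0.74 to 1.48 and for Nrp1 from -3.14 to 1.13. In 33 of the 66 genes all 3 hypidone libraries fell within the range of the control libraries, a range that control 5 widened.

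Related genes outside the 67 were counted in 3 lists, beside the same shares of all tested genes: 10.6% higher and 9.81% lower for MCAO against control, and 8.23% and 8.28% for hypidone against MCAO. Of 23 tested other guidance ligands, receptors and adhesion partners, 1 was higher and 2 lower in MCAO than in control libraries, and 2 were higher and 2 lower in hypidone than in MCAO libraries. Neo1, the netrin and repulsive guidance molecule receptor neogenin, had log2 fold changes of 0.67 ± 0.16 for MCAO against control (adjusted p = 0.0221, edgeR) and -0.64 ± 0.16 for hypidone against MCAO (adjusted p = 0.0287). The adhesion gene L1cam had -1.17 ± 0.23 and 1.25 ± 0.23 (adjusted p = 0.0107 and 0.0109), and the netrin G2 gene Ntng2 -1.41 ± 0.17 and 1.18 ± 0.17 (adjusted p = 0.00347 and 0.0057). Islr2, which encodes a neuronal membrane protein, was lower in hypidone than in MCAO libraries (-1.17 ± 0.35, adjusted p = 0.0484, edgeR). Of 48 intracellular effectors, 4 were higher in MCAO than in control libraries (Dpysl4, Farp1, Vav2, Rock1) and 3 lower (Dpysl2, Mical2, Limk1), with 2 higher and 3 lower in hypidone than in MCAO libraries. The 2 higher in hypidone libraries were Mical2 and Limk1, and the 3 lower were Dpysl4, Farp1 and Rock1. Limk1, the cofilin kinase gene, had log2 fold changes of -0.71 ± 0.17 for MCAO against control and 0.85 ± 0.17 for hypidone against MCAO (adjusted p = 0.0205 and 0.0132, edgeR). Of 18 myelin and matrix growth inhibitors and their receptors, 1 was higher in MCAO than in control libraries, the proteoglycan gene Vcan (1.52 ± 0.29, adjusted p = 0.0101, edgeR), and 2 were lower, Rtn4rl2 (-0.67 ± 0.20) and Cspg5 (-0.72 ± 0.18). In hypidone against MCAO, Cspg5 was higher (0.82 ± 0.18, adjusted p = 0.0199, edgeR) and Vcan lower (-1.40 ± 0.29, adjusted p = 0.0157). The median log2 fold changes of the 3 lists for MCAO against control were -0.09, -0.01 and -0.19, against 0.01 over all tested genes.

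Levels of markers of several cell types also differed between the groups. The summed CPM of 12 neuron markers ran from 16510 to 17960 in hypidone and from 14550 to 18280 in control libraries. It was 17330, 8647 and 11860 in MCAO 4, MCAO 5 and MCAO 6. Of the 12 markers, 1 was lower in MCAO than in control libraries, beside 9.81% of all tested genes. In hypidone against MCAO 2 were higher, beside 8.23%. For 10 cortical neuron markers the sum ran from 1447 to 1607 in hypidone and from 537.8 to 1615 in control libraries. It was 1310, 661.4 and 714.7 in MCAO 4, MCAO 5 and MCAO 6. None of these 10 markers was called in either comparison. The summed CPM of 14 microglia and macrophage markers ran from 678.9 to 854.8 in hypidone and from 572.5 to 620.2 in control libraries. It was 787.3, 9761 and 1944 in MCAO 4, MCAO 5 and MCAO 6, so MCAO 4 lay within the hypidone range. Of the 14 markers, 9 were higher in MCAO than in control libraries, beside 10.6% of all tested genes. In hypidone against MCAO 8 were lower, beside 8.28%. For 13 reactive astrocyte markers the sum ran from 414.8 to 671.3 in hypidone and from 209.4 to 815.1 in control libraries. MCAO 4 had 762.4, below control 5 at 815.1, while MCAO 5 had 4899 and MCAO 6 had 4610. Of 12 tested markers, 10 were higher in MCAO than in control libraries, and 8 were lower in hypidone than in MCAO libraries. Of the 13 markers, Ptx3 was at 0 in some library. Summed CPM of 5 red blood cell markers was 71.3 to 186.5 in hypidone, 4.31 to 28.0 in MCAO and 41.9 to 72.8 in control libraries. All 5 were called higher in hypidone than in MCAO libraries, and none was called in MCAO against control. The part of these markers in the guidance genes was not tested.

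In the authors' deposited table of comparisons, all 10 guidance genes called here for MCAO against control had a q-value under 0.05 in the same direction, as had all 10 for hypidone against MCAO. Both sets of results come from the same libraries, so this overlap is not independent. The authors' deposited table listed 4 guidance genes higher and 10 lower for MCAO against control, adding Sema3d, Epha7, Sema5a and Unc5b. For hypidone against MCAO, the authors' deposited table listed 12 higher and 5 lower, adding Efna5, Sema3a, Unc5b and Unc5d to the higher and Robo4, Slit1 and Unc5a to the lower genes. The share of all genes under this q-value was not computed, so these counts cannot be set beside it.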

How the data were processed

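RNA of 9 mouse brain samples was extracted with TRIzol, and VAHTS Universal V6 was used for the libraries, per the labels' protocols. The authors deposited whole-number counts for each gene symbol, FPKM, and results of their comparisons as a fold ratio with a q-value. Each deposited FPKM equals the count over the library total and over a length that is fixed for the gene (largest relative spread 8.88e-16 over 17464 genes). The submitters' processing notes name mm10 and DESeq2. Aligner, counter and strand option were not given in the sources used here, and how reads of overlapping or closely similar genes were assigned is unknown. Of the deposited comparison table, 9 per-sample columns were not used.

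Genes were kept with filterByExpr (14756 of 18138), scaled by TMM and fitted once over the 9 libraries with 6 residual degrees of freedom (edgeR 4.0.16, R 4.3.3), so the 3 groups share 1 estimate of the spread. Each comparison was a two-sided quasi-likelihood F test with Benjamini-Hochberg adjustment over all tested genes at 0.05. Standard errors were taken as the size of the log2 fold change over the square root of F, and intervals are 95%. Alternatives used DESeq2 1.42.0 and, on log2(FPKM + 1) or log2(FPKM + 0.1), limma 3.58.1. Groups come from the treatment labels and library numbers from the sample titles. The procedure was tested on simulated counts. The 67 genes were matched by symbol to GENCODE, and start regions come from RefSeq.

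The genes, the related gene lists and the cell type markers were chosen with earlier results of these data known. By rule, the text names every called gene, the 10 genes of highest mean FPKM, partners of described genes, and called genes of the related lists. Other genes near the threshold, or far apart in control 5 or MCAO 5, were chosen after their values were seen.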

Additional observations from a re-analysis of the deposited data

How the results depend on the processing

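Of 390 values of single called genes recomputed under the alternatives, 321 kept their direction and call, 69 lost the call and 0 changed direction. For MCAO against control (3 higher, 7 lower), DESeq2's test called 6 and 16 guidance genes, beside 16.2% and 14.2% of all tested genes. A fit of only the groups compared called 2 and 2, beside 2.38% and 2.33%. Leaving out each library in turn gave 2 to 5 higher and 4 to 11 lower, with 11 lower without control 5 or MCAO 4, 5 higher without MCAO 4, and 4 lower without control 6. For hypidone against MCAO (8 higher, 2 lower), leaving out each library gave 2 to 11 higher and 1 to 5 lower. Without hypidone 2 it gave 2 and 1, without hypidone 7 it gave 2 and 2, without hypidone 8 it gave 4 and 1, and without MCAO 6 it gave 4 and 2. The lower count was 4 without control 5 and 5 without MCAO 4. The shares of all tested genes called in the named fits also changed and are given above. Slit2, Ephb3 and Efna1 were called for hypidone against MCAO in all 19 alternatives. Some settings were added after seeing the data, with shares of all tested genes in brackets. Leaving out control 5 and MCAO 5 gave 8 higher and 14 lower for MCAO against control (15.7% and 15.2%). It gave 16 and 6 for hypidone against MCAO (16.3% and 16%). Fits of only the groups compared without MCAO 5 gave 2 and 3 for MCAO against control (3.93% and 4.14%). For hypidone against MCAO they gave 15 and 5 (13.4% each). Hypidone against control gave 0 and 0 guidance genes in every alternative run. The cause of these changes was not tested. Fits without a library or a group also rested on fewer libraries. With 3 libraries a group, changes the size of the control spread were not detectable in genes such as Nrp1.

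MCAO and control libraries share the numbers 4, 5 and 6. Their deviations from the group means correlated at 0.118, 0.123 and -0.042 for the same numbers, and at between -0.151 and 0.124 for different numbers. These correlations cannot decide whether the numbers pair the libraries, since the deviations of 3 libraries sum to 0 within each group. The main fit used no pairing because the labels do not say that the numbers pair the libraries. A fit of these groups with the number as a replicate block called 0 higher and 0 lower guidance genes and 0 of all 14489 genes (edgeR). It left fewer residual degrees of freedom than the 6 of the main fit, so its 0 calls cannot show whether pairing matters. At an unadjusted p under 0.05 (edgeR) it had 5 higher and 15 lower guidance genes, with the share of all tested genes not computed. The main fit had 7 and 17 of 66, beside 19.2% and 17.6% of all tested genes.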
